A study of Homo sapiens with 25 samples.

Results

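The genes described here encode the MHC class I heavy chains HLA-B, HLA-C, HLA-E, HLA-F and HLA-G, their partner B2M, the peptide transporter subunits TAP1 and TAP2, and the transactivator NLRC5. They were chosen by name, as 9 of 19970 protein-coding genes of GENCODE release 44 on chromosomes 1 to 22 and X. Each was read against 4 lists of histone mark peaks and 5 lists of broad domains, all in hg38 coordinates. The cells were MDA-MB-231, a human triple-negative breast cancer line, and chromatin was profiled by ChIP-seq. The knockdown group carried a lentiviral short hairpin RNA against PML, a tumour suppressor protein that builds nuclear bodies; the control group is titled as control, and the sources used here do not say what its cells carried. Both groups share the line, the medium and the double fixation with Di(N-succinimidyl) glutarate and formaldehyde. H3K4me3 and H3K27ac, the lamina protein LMNB1 and H3K9me3 each had 2 libraries in PML knockdown cells and 2 in control cells, and PML had 3 libraries titled with no condition. Each mark or protein had 1 list per condition and no value per replicate, so no difference below has a replicate check or a p-value. The read depth behind the lists is unknown, and a list without a peak at a site shows only that none passed the authors' threshold there. The conditions in the peak names, ct and pml, were taken to mean control and PML knockdown, since the titles name no others. No list measures PML transcript or protein, so the knockdown itself was not checked here.

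MHC class I molecules show peptides from inside the cell to CD8 T cells and natural killer cells. The proteasome cuts proteins into peptides, TAP1 and TAP2 together carry them into the endoplasmic reticulum, and there they are loaded onto a heavy chain held together with beta-2 microglobulin, the product of B2M. Transcription of most of these genes is raised by interferon and NF-kappa B and by NLRC5, which acts with the RFX proteins at a shared promoter module, and tumours often lower it. H3K4me3 marks active or poised promoters and H3K27ac marks active promoters and enhancers.

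Of the 9 genes, 8 carried a promoter peak of H3K4me3 in both lists, a promoter being the 1 kb before and after the canonical transcript's start. H3K27ac separated the lists: 8 of the 9 genes had a promoter peak in the PML knockdown list and 5 in the control list. HLA-B, HLA-F and NLRC5 carried H3K27ac in the knockdown list only, 0 of the 9 carried either mark in the control list only, and HLA-G had no peak of either mark in either list. Over all protein-coding genes, 63.7% had an H3K4me3 promoter peak in the knockdown and 61.8% in the control list, and 53.7% and 50.8% had an H3K27ac promoter peak in the knockdown and control lists. A promoter peak of H3K27ac in the knockdown list only was found at 3.24% of all protein-coding genes, and one in the control list only at 0.666%. For H3K4me3 these shares were 1.79% and 0.0951%, and 0 of the 9 genes fell in either class. The knockdown lists were also longer, with 43615 against 42320 H3K27ac peaks and 27760 against 22211 H3K4me3 peaks, so whether the knockdown list reached weaker peaks or these promoters carried more acetylation cannot be told apart. Among the 12328 genes whose H3K4me3 promoter peak was in both lists, 4.79% carried H3K27ac in the knockdown list only, against 3 of the 8 members with H3K4me3 in both.

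**Figure D1:**
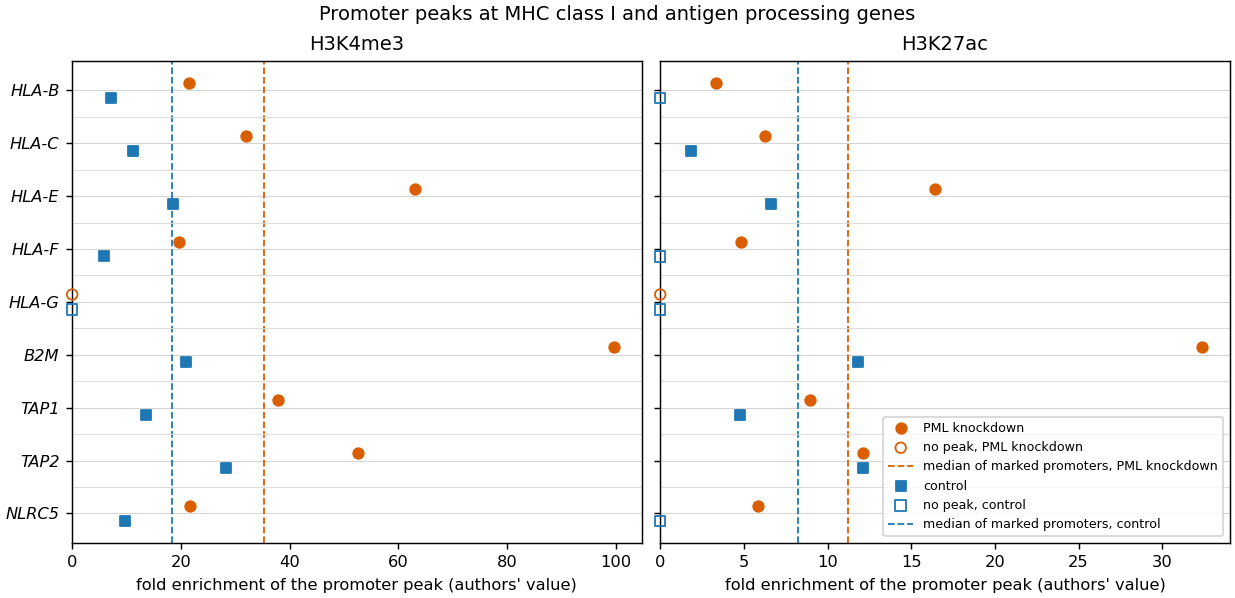
The authors' fold enrichment of each promoter peak (x axis) for the 9 genes (y axis), in the PML knockdown list (orange circles) and the control list (blue squares), with H3K4me3 on the left and H3K27ac on the right. Open symbols at 0 stand for no peak and dashed lines for the median over all promoters marked in that list. H3K27ac lacks a control symbol with a value at HLA-B, HLA-F, HLA-G and NLRC5. In both panels B2M lies farthest right among the knockdown symbols and TAP2 among the control symbols.

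The fold enrichment was computed by the authors for each peak over its background, and it orders the peaks of 1 list. The scales of the lists differ: over promoters marked in both lists the median H3K4me3 fold was 36.2 in the knockdown and 18.4 in the control list, and the median H3K27ac fold was 12.0 in the knockdown and 8.38 in the control list. Positions are therefore also given as percentiles among one common set, the 12328 promoters with H3K4me3 peaks in both lists or the 10009 with H3K27ac peaks in both. A percentile is the share of the set with a lower fold, and it describes order only.

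The classical heavy chains HLA-B and HLA-C, which present peptides to CD8 T cells, had H3K4me3 folds below the median of marked promoters in both lists. At HLA-B (chromosome 6, 31353875 to 31357179, minus strand) the H3K4me3 peak had a fold of 21.5 in the knockdown and 7.19 in the control list, at percentiles 24.5 and 11.5 of the common set. The H3K27ac peak at HLA-B had a fold of 3.34 and a -log10 q of 7.77 in the knockdown list, and the control list had none. HLA-B was thus a promoter with a weak acetylation peak, at percentile 4.46 of the promoters marked in the knockdown list. At HLA-C (chromosome 6, 31268749 to 31272092, minus strand) the H3K4me3 fold was 32.0 in the knockdown and 11.2 in the control list. The H3K27ac peak at HLA-C had a fold of 6.29 and a -log10 q of 15.7 in the knockdown list, and a fold of 1.86 and a -log10 q of 1.45 in the control list. The control value lies close to the lowest -log10 q of the lists, 1.30, so HLA-C was just inside the list there, at rank 10116 of 10154 marked promoters. That peak was 1153 bp wide in the knockdown and 426 bp wide in the control list, where it lay wholly downstream of the start.

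HLA-E, HLA-F and HLA-G are the nonclassical heavy chains: HLA-E is read by inhibitory receptors of natural killer cells, and HLA-G is best known from the placenta. HLA-E (chromosome 6, 30489509 to 30494194, plus strand) was the most strongly marked heavy chain of the 5 in all 4 peak lists. Its H3K4me3 fold was 63.1 in the knockdown and 18.5 in the control list, at percentiles 84.7 and 50.3 of the common set. Its H3K27ac fold was 16.4 in the knockdown and 6.61 in the control list, at percentiles 65.1 and 37.7. HLA-F (chromosome 6, 29723434 to 29727296, plus strand) had an H3K4me3 fold of 19.6 in the knockdown and 5.93 in the control list. Its H3K27ac peak, 330 bp wide, had a fold of 4.82 and a -log10 q of 9.13 in the knockdown list and no counterpart in the control list. HLA-G (chromosome 6, 29827825 to 29831021, plus strand) was the single gene of the 9 with no promoter or gene-body peak in these 4 lists.

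The promoters of HLA-B, HLA-C, HLA-F and HLA-G are shown because they are close relatives that stood apart in their peaks. That of B2M is shown because it carried the highest folds of the 9 genes in the knockdown lists. RefSeq promoters placed on the same transcript start were found for 7 of the 9 genes (GRCh38.p14, 250 bases before to 50 after the start); HLA-E and NLRC5 are named only. Each is printed 5′ to 3′ on the gene's strand, with capitals at matches, on either strand, to 5 motifs: GAAA, any 2 bases and GAAA for the interferon-stimulated response element, GGG, any 2 bases and TTCCC for kappa B, TGACG for the cyclic AMP response element core of the X2 box, CCAAT for the Y box and TTCNNNGAA for the gamma-activated site. The coordinates are chr6:31357130-31357429 for HLA-B, chr6:31272043-31272342 for HLA-C, chr6:29723184-29723483 for HLA-F, chr6:29827575-29827874 for HLA-G and chr15:44711267-44711566 for B2M.
HLA-B: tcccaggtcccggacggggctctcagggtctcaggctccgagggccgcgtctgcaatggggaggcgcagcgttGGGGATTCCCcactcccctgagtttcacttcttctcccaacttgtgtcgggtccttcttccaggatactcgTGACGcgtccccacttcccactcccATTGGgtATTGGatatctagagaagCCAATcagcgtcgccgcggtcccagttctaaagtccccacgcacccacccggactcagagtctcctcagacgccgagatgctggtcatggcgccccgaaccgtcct
HLA-C: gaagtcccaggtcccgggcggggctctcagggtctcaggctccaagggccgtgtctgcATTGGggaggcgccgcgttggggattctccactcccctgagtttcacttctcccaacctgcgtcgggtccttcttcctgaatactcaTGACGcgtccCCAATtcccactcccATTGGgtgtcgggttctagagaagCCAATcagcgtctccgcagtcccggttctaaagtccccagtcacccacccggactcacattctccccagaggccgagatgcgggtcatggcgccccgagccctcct
HLA-F: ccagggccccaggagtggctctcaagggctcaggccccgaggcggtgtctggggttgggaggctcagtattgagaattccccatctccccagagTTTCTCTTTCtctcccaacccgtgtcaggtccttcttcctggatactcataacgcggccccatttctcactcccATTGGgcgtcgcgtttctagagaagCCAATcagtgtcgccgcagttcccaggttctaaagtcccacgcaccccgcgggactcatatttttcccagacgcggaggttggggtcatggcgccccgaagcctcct
HLA-G: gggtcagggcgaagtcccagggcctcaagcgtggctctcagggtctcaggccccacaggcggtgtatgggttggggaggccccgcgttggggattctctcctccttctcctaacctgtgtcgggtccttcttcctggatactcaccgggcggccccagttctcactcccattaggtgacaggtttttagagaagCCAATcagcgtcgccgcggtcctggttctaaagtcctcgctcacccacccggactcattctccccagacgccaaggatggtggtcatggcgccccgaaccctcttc
B2M: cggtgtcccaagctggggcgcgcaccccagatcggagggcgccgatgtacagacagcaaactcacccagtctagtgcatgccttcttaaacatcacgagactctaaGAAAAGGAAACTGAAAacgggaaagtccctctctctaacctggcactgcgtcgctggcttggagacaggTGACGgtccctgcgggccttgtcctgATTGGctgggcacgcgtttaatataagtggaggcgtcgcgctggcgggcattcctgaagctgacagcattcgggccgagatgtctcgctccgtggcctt

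Over an end-to-end alignment the HLA-B and HLA-C promoters were 88.5% identical, HLA-B and HLA-F 79.7%, and HLA-B and HLA-G 74.5%. HLA-B held GGGGATTCCC, a match to the kappa B letters searched, 177 bases before the start. It was the single one of the 7 matched promoters with a match to this pattern, which 2.17% of the 35116 RefSeq promoters hold. Other forms of the kappa B element were not searched, so the element cannot be called absent from the others. TGACG stood at HLA-B, HLA-C, B2M and TAP2 and at 24.6% of all promoters, while the windows of HLA-F, HLA-G and TAP1 did not hold these letters. CCAAT, in either direction, stood 3 times at HLA-B, 4 times at HLA-C, 2 times at HLA-F and 1 time each at HLA-G, B2M and TAP1, and at 34.6% of all promoters. The letters searched for the interferon-stimulated response element stood at HLA-F, B2M, TAP1 and TAP2 and at 3.57% of all promoters. At B2M and TAP1 they occurred 2 times, in overlapping copies. Variant forms of this element were not searched, so HLA-B, HLA-C and HLA-G cannot be said to lack it. TTCNNNGAA stood at none of the 7 and at 7.66% of all promoters. Of the genes with H3K27ac in the knockdown list only, HLA-B held TGACG and HLA-F did not, and NLRC5 had no matched promoter. Of those with H3K27ac in both lists, HLA-C, B2M and TAP2 held it, TAP1 did not, and HLA-E had no matched promoter. A link between TGACG and the H3K27ac calls was not tested. HLA-G held the fewest matches, 1. These are matches of letters in this window and not evidence of binding.

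B2M (chromosome 15, 44711517 to 44718145, plus strand), the light chain that every class I molecule needs, carried the strongest peaks of the 9 genes in the knockdown lists. Its H3K4me3 fold was 99.8 in the knockdown and 20.9 in the control list. That placed B2M at rank 206 of 12725 marked promoters in the knockdown list and at rank 5092 of 12347 in the control list, or at percentiles 98.3 and 58.7 of the common set. A difference in percentile at least as high, 39.6 points, was seen at 3.24% of the common set. Its H3K27ac fold was 32.4 in the knockdown and 11.8 in the control list, at percentiles 90.2 and 66.7. The peaks at B2M were broad: H3K4me3 covered 3643 bp in the knockdown and 3252 bp in the control list, wider than 94.3% and 94.4% of the peaks in the same lists. PATL2 starts 194 bp away on the other strand, inside all 4 of these peaks, so they cannot be given to B2M alone.

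TAP1 and TAP2, the paired subunits of the peptide transporter, stood apart from each other. TAP1 (chromosome 6, 32845209 to 32853704, minus strand) had an H3K4me3 fold of 37.8 in the knockdown and 13.6 in the control list, at percentiles 52.9 and 32.9 of the common set. Its H3K27ac fold was 8.93 in the knockdown and 4.76 in the control list, and the peak was 2490 bp wide in the knockdown and 1266 bp in the control list. The TAP1 peaks, apart from the control H3K27ac peak, which ended at position -331 bp, also cover the start of PSMB9, an immunoproteasome subunit that runs the other way from a start 488 bp away. The H3K4me3 summit stood at position -678 bp from the TAP1 start in the knockdown and -667 bp in the control list. TAP2 (chromosome 6, 32825415 to 32838739, minus strand) had an H3K4me3 fold of 52.6 in the knockdown and 28.3 in the control list. Its H3K27ac fold was 12.1 in both lists, at percentile 50.3 in the knockdown and 67.8 in the control list. A protein-coding gene model with no symbol starts 83 bp away on the same strand and shares these peaks. TAP2 was the member with the highest folds in the control lists and the only one at a lower percentile of the common set in the knockdown list, for both marks.

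**Figure D2:**
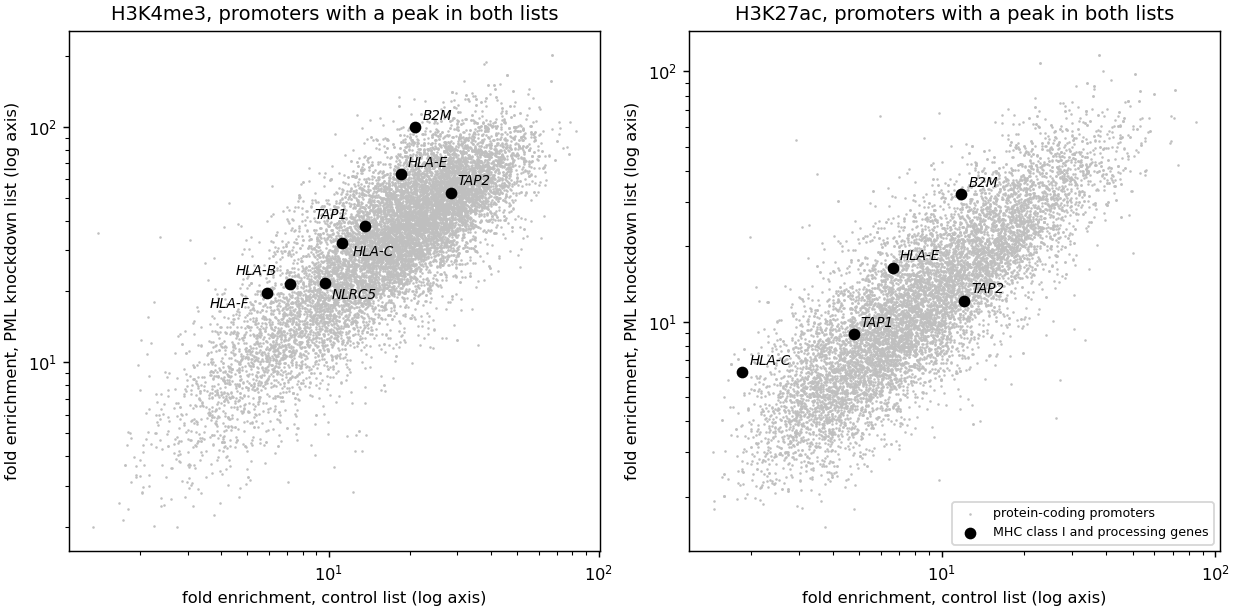
Fold enrichment in the PML knockdown list (y axis, log) against the control list (x axis, log) for promoters with a peak in both lists, with H3K4me3 on the left (12328 promoters) and H3K27ac on the right (10009 promoters). Grey points are protein-coding promoters and black points the MHC class I and processing genes. B2M and HLA-E lie toward the upper edge of the grey cloud in both panels, and TAP2 in its middle or lower part.

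Most of the members with peaks in both lists stood higher in the order of the common set in the knockdown list than in the control list. For H3K4me3 this held for 7 of 8 members, TAP2 being the exception, against 47.7% of the common set. For H3K27ac it held for 4 of 5, with TAP2 again the exception, against 47.4%. The differences for H3K4me3 ran from -4.36 points at TAP2 and 5.89 at NLRC5 to 34.4 at HLA-E and 39.6 at B2M. For H3K27ac they were -17.4 points at TAP2, 14.1 at TAP1, 19.0 at HLA-C, 23.6 at B2M and 27.4 at HLA-E. The median percentile of these 8 H3K4me3 promoters was 47.8 in the knockdown and 28.6 in the control list. The median of the whole set is 50 by definition. A low percentile in the control list leaves more room to rise, and the 47.7% and 47.4% were not matched for it. The heavy chain genes are near-copies and so not independent points; the sources used here do not say how reads with several matches were treated, and their part in these values was not tested.

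**Figure D3:**
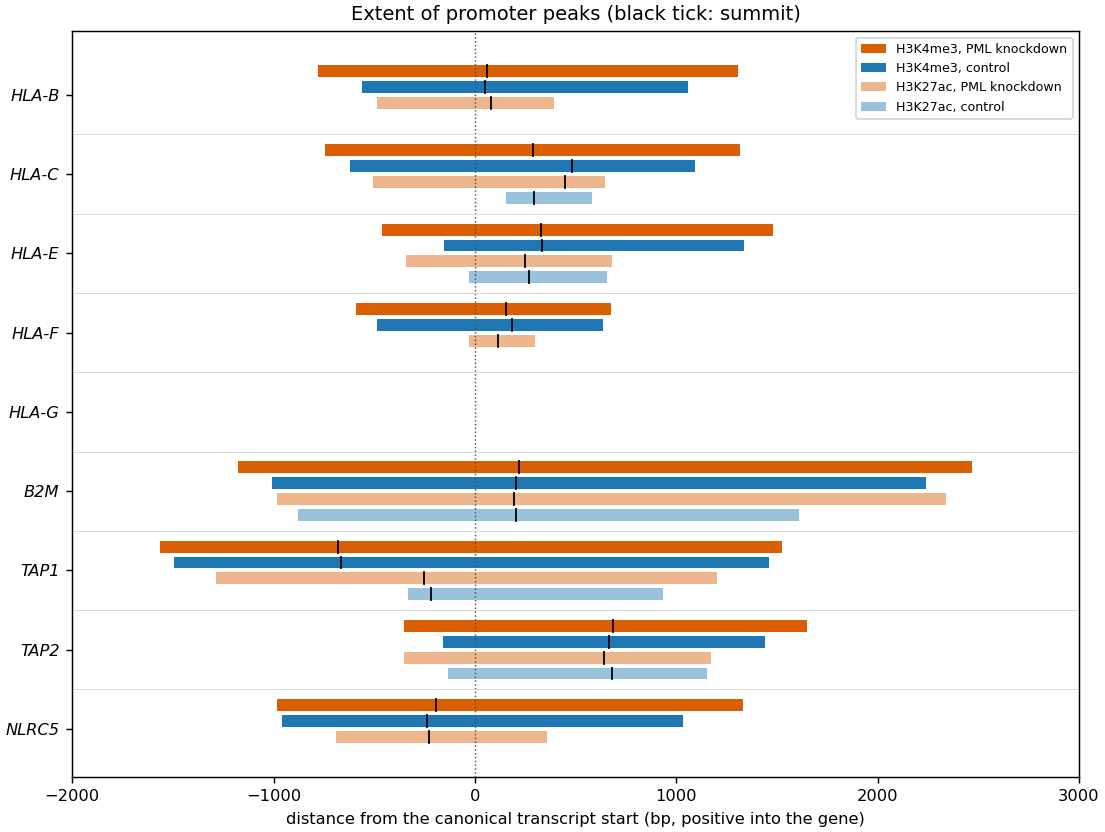
Extent of each promoter peak relative to the canonical transcript start (x axis, bp), for the 9 genes (y axis), with the summit as a black tick. Within a gene the bars run, from the top, H3K4me3 in PML knockdown and control and then H3K27ac in PML knockdown and control. Each knockdown bar with a control counterpart reaches at least as far on both sides, and HLA-G has no bar.

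NLRC5, the transactivator of the class I genes, differed between the lists in H3K27ac along its body as well as at its start. At the promoter (canonical transcript on chromosome 16, 56989557 to 57083520, plus strand) the H3K4me3 fold was 21.7 in the knockdown and 9.66 in the control list, and the H3K27ac peak had a fold of 5.86 and a -log10 q of 17.0 in the knockdown list only. Inside the gene the knockdown list held 4 more H3K27ac peaks and the control list 3. The peak with its summit 10.9 kb into the gene had a fold of 13.8 in the knockdown and 7.52 in the control list. The one near 25 kb differed most: its fold was 9.65 over 2680 bp in the knockdown list, with the summit at 25.1 kb, and 1.92 over 1074 bp with a -log10 q of 1.75 in the control list. A peak at 28.3 kb, with a fold of 4.09, was in the knockdown list only. The peak at 72.1 kb had a fold of 13.9 in the knockdown and 10.9 in the control list, above 79.0% and 79.7% of the H3K27ac peaks in the same lists. No other gene of the 9 held a gene-body peak outside its promoter window, and NLRC5 is also by far the longest.

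**Figure D4:**
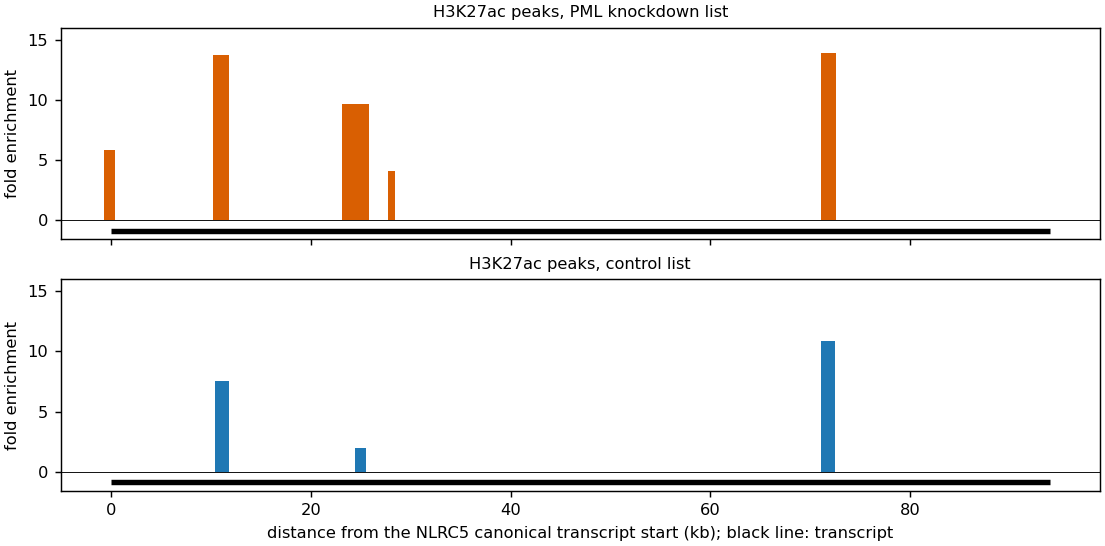
H3K27ac peaks along NLRC5, with distance from the canonical start in kb on the x axis and the authors' fold enrichment on the y axis, for the PML knockdown list (above) and the control list (below). Each bar spans a peak and the black line is the transcript. The promoter peak and the peak at 28.3 kb appear in the knockdown list only.

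Counting promoter and gene-body peaks together, the 8 control H3K4me3 peaks and the 8 control H3K27ac peaks at these genes each overlapped a knockdown peak by at least 1 bp. The knockdown lists held 8 H3K4me3 and 12 H3K27ac peaks there, of which 0 and 4 had no control counterpart. The same share over all peaks of the lists was not computed, so these peak counts have no background. For promoters, 3.24% of all protein-coding genes carried H3K27ac in the knockdown list only. The 4 H3K27ac peaks without a counterpart were the promoter peaks of HLA-B, HLA-F and NLRC5 and the NLRC5 peak at 28.3 kb. Their folds were 3.34 at HLA-B, 4.82 at HLA-F, 5.86 at the NLRC5 promoter and 4.09 at the NLRC5 peak at 28.3 kb. The median was 3.95 over the 647 promoters with H3K27ac in the knockdown list only, which leaves out gene-body peaks.

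None of the 9 genes started in a broad domain of PML, of LMNB1 in either condition or of H3K9me3, the mark of constitutive heterochromatin, in either condition. The share of all protein-coding genes was 13.1% for PML, 11.0% for LMNB1 in the knockdown and 12.4% in the control list, and 8.60% for H3K9me3 in the knockdown and 10.0% in the control list. With 9 genes, a count of 0 is not set apart from these shares. HLA-F and HLA-G lay nearest to PML and LMNB1 domains: the start of HLA-F was 131 kb from a PML domain, 133 kb from a LMNB1 domain in the knockdown and 126 kb in the control list. The closest domain of all was one of H3K9me3 in the control list, on chromosome 6 from 32338001 to 32821000, whose edge lay 17.7 kb from the TAP2 start and 32.7 kb from the TAP1 start. That domain, 483 kb long, held the starts of 10 protein-coding genes, 5 of them from the class II list below, and 0 domains of the knockdown list overlapped it. The nearest H3K9me3 domain of the knockdown list was 831 kb from TAP2 and 816 kb from TAP1.

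**Figure D5:**
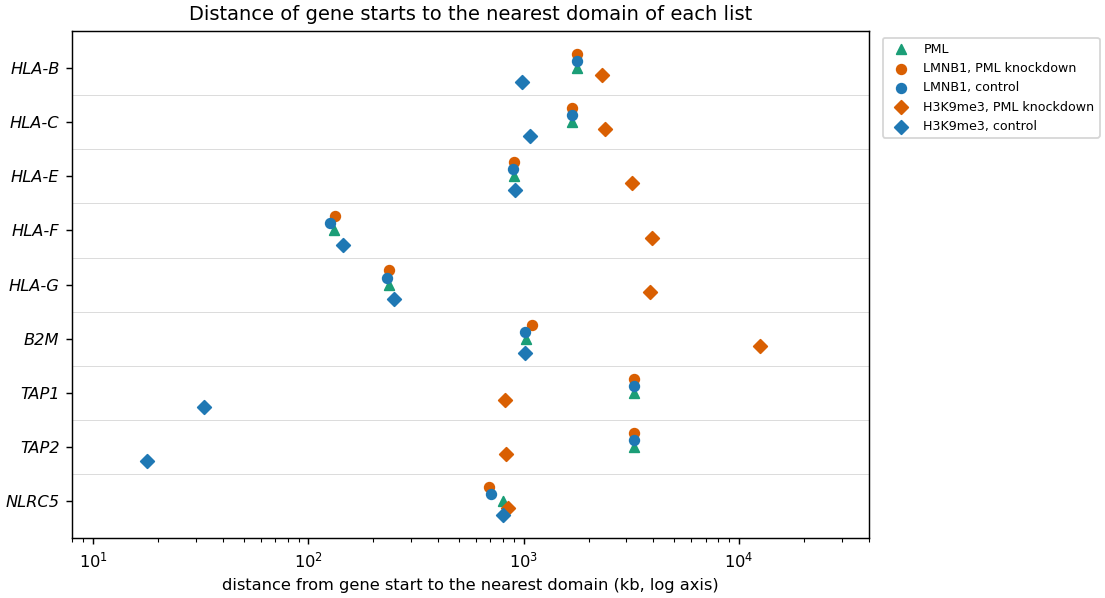
Distance in kb (x axis, log) from the start of each of the 9 genes (y axis) to the nearest domain of each of 5 lists. Triangles stand for PML, circles for LMNB1 and diamonds for H3K9me3, with PML knockdown in orange and control in blue. TAP2 and TAP1 lie 17.7 and 32.7 kb from a control H3K9me3 domain and at least 816 kb from a knockdown one, while the LMNB1 distances of the 2 conditions nearly coincide.

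Most other genes of the pathway were marked in both lists. Among 12 genes of peptide processing and loading, 12 carried H3K4me3 in both lists, and 12 carried H3K27ac in the knockdown and 11 in the control list. The exception was PSME1, a subunit of the proteasome activator, with an H3K27ac fold of 4.69 in the knockdown list and no peak in the control list. H3K27ac in the knockdown list only was found at 3.24% of all protein-coding genes. The highest control H3K27ac folds of this list were at CANX, an endoplasmic reticulum chaperone (18.7 in the knockdown and 16.5 in the control list), and at TAPBPL, a peptide editor (20.0 and 11.5). In the order of the common set, 7 of 12 genes stood higher in the knockdown list for H3K4me3 and 5 of 11 for H3K27ac, near the 47.7% and 47.4% of all promoters. PSMB9, among these genes, was read from the same peaks as TAP1, so those peaks count here and among the members. The control H3K27ac peak lies in the PSMB9 promoter window without covering its start.

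Among 16 regulators of class I transcription, 16 carried H3K4me3 in both lists, and 16 carried H3K27ac in the knockdown and 15 in the control list. IFNGR2, a chain of the interferon gamma receptor, had an H3K27ac fold of 2.45 in the knockdown list only. That class held 3.24% of all protein-coding genes. JAK2, the kinase of that receptor, had H3K27ac folds of 22.7 in the knockdown and 20.3 in the control list, and RELA, a subunit of NF-kappa B, 14.2 and 12.3. For the regulators, 6 of 16 stood higher in the common set in the knockdown list for H3K4me3 and 5 of 15 for H3K27ac. The shares over the whole common sets were 47.7% and 47.4%, and a difference from them was not tested.

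Among 12 class I-like genes, 9 carried H3K4me3 in the knockdown and 8 in the control list, and 8 carried H3K27ac in the knockdown and 6 in the control list. The shares of all protein-coding genes were 63.7% and 61.8% for H3K4me3, and 53.7% and 50.8% for H3K27ac. The 2 with H3K27ac in the knockdown list only encode stress ligands of the NKG2D receptor: MICB, with a fold of 3.95, and ULBP2, with a fold of 7.53. That class held 3.24% of all protein-coding genes. Of their relatives in this list, MICA, ULBP3 and RAET1E carried H3K27ac in both lists and ULBP1 in neither. MICA is named here only as a relative of MICB. HFE, a regulator of iron uptake, had H3K27ac folds of 14.1 in the knockdown and 12.8 in the control list, and RAET1E, another NKG2D ligand, 22.3 and 9.86. MICB also had an H3K4me3 fold of 45.8 in the knockdown and 7.01 in the control list. In the H3K9me3 lists, 4 of the 12 class I-like genes started in a domain of the knockdown list, namely ULBP1, ULBP2, ULBP3 and RAET1E on chromosome 6, and 1, CD1D, in a domain of the control list, against 8.60% of all protein-coding genes in the knockdown and 10.0% in the control list. The 4 lie in 1 domain and so rest on a single call. These 5 genes are named for their place in the domains, after the values were seen.

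Class II genes, which present outside peptides on specialised cells, were mostly unmarked. Of 12 class II genes with CD74 and CIITA among them, 3 carried H3K4me3 in each list, and 1 carried H3K27ac in the knockdown list against 0 in the control list. Over all protein-coding genes the knockdown and control shares were 63.7% and 61.8% for H3K4me3, and 53.7% and 50.8% for H3K27ac. HLA-DQB1 carried H3K4me3 in the knockdown list only (fold 4.72) and CD74, the invariant chain, in the control list only (6.02), while HLA-DMA, a class II peptide editor, had the H3K27ac peak (3.68). In the H3K9me3 lists, 0 of the 12 started in a domain of the knockdown list and 5 in one of the control list, where the shares of all protein-coding genes were 8.60% and 10.0%. The 5 lie in 1 domain, the 483 kb domain next to TAP2, and so rest on a single call.

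The genes whose fold percentiles in the 4 lists were nearest to a member's, among 9804 genes marked in all 4, were KAT2B for HLA-C (5.41 percentile points apart), DHX8 for HLA-E (3.04), ATG7 for B2M (3.91), PYGL for TAP1 (5.18) and ENO4 for TAP2 (4.58). Among cell type markers, 5 of 5 basal and mesenchymal marker genes carried both marks in both lists. Of 5 luminal markers, 3 carried H3K4me3 in the knockdown and 2 in the control list (ESR1 and EPCAM in both, PGR in the knockdown list only), and 1, EPCAM, carried H3K27ac in the knockdown against 0 in the control list. Of 4 immune markers, 1, CD14, carried H3K4me3 in both lists and 0 carried H3K27ac in either. Of all protein-coding genes, 63.7% carried H3K4me3 in the knockdown and 61.8% in the control list. For H3K27ac these shares were 53.7% and 50.8%. Such counts at a few genes do not establish the identity of the line.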

How the data were processed

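The submitters' processing notes give hg38 as the build of these ChIP-seq data and list deepTools, MACS2 2.2.7.1, Picard 1.104 and BWA 0.7.12-r1039, with no role for any. The deposited peak lists hold a fold enrichment, a ratio, and a -log10 q-value per peak as the authors deposited them; replicates 1 and 2 were called together, per the peak names. The deposited domain lists hold 1 score per domain with no unit, which was not used, and the caller is named only as EDD in the file names. Pooling of domain replicates, treatment of reads with several matches and read depth are not given in the sources used here. The 4 peak lists hold 0 peaks on alternate MHC haplotype contigs. The libraries of H3K27me3 and the inputs were left out, as no list of them was used.

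Peaks were assigned to canonical promoters (1 kb on either side) and gene bodies of GENCODE 44 with Python 3.11.15 and numpy 2.4.6. "In 1 list only" required no peak of the other list in the window and none overlapping the peak. Calls were tested on simulated peaks. Promoter sequences came from RefSeq (GRCh38.p14) and were aligned with Biopython 1.88. The members and lists were chosen with earlier results of these data known. All 9 members are named; of each other list, genes marked in 1 list only and the 2 highest control H3K27ac folds, and for likeness the nearest gene over 1 Mb away. Alternatives were promoters of 500 or 2500 bp on either side, -log10 q of at least 5, any transcript start, equal numbers of peaks, a 50% overlap, domains of at least 500 kb and starts within 100 kb of a domain.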

Additional observations from a re-analysis of the deposited data

How the results depend on the processing

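Of 40 alternative values, 39 stayed within 1.5 times the reported count. The exception was the number of members at control H3K9me3 domains, which was 2 (TAP1 and TAP2) when starts within 100 kb of a domain were counted and 0 otherwise. HLA-B, HLA-F and NLRC5 carried H3K27ac in the knockdown list only under each setting tried, including promoters of 500 or 2500 bp on either side, any transcript start and equal numbers of peaks, where the share of all genes was 3.11%. With -log10 q of at least 5, HLA-C joined them, against 3.86% of all genes. That setting could not change the calls at HLA-B, HLA-F and NLRC5. Their knockdown peaks have -log10 q of 7.77, 9.13 and 17.0, and a stricter threshold adds no control peak. Equal numbers of peaks removed only the weakest knockdown peaks and likewise added no control peak. Neither setting therefore checks whether the control list missed a peak at these promoters. No paired analysis was possible because each list pools its replicates, and for the same reason no replicate could be left out. With no read depth, a knockdown list that reaches weaker peaks cannot be told apart from more acetylation.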
